A study of Arabidopsis thaliana with 24 samples.

Results

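The transcriptome response of etiolated wild-type Arabidopsis thaliana seedlings to abscisic acid (ABA) was measured in 6 of the 24 libraries of the series, 3 from ABA plates and 3 from mock plates. All genes were considered: 20828 of the 32833 in the count table passed the filter on low counts and were tested. Both groups were whole seedlings of the accession Columbia-0 without mutation, so root, hypocotyl, cotyledons and shoot apex were mixed in each library. Seeds were stratified for 2 days, given 2 h of light, kept dark for 62 h on a mesh over sucrose medium, and then moved with the mesh to plates with ABA or with its solvent ethanol. They stayed a further 4 days in darkness at 22 °C, times that the submitters give as holding unless stated otherwise. The sources used here state neither the ABA dose nor the number of seedlings per library. Where the response is set against others, the second setting was the same wild type in dim white light (transfer after 72 h, 5 days of treatment). The third was pifq in darkness, a mutant of the phytochrome-interacting factors PIF1, PIF3, PIF4 and PIF5, which hold seedlings in the etiolated state. Both have their own ABA and mock libraries, and the light-grown seedlings also differed in age and time on the plates.

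ABA is the hormone of seed maturation, dormancy and water deficit. It binds PYR/PYL receptors, which then block clade A PP2C phosphatases. This frees SnRK2 kinases to phosphorylate bZIP factors of the ABF/ABI5 family, and these bind promoter elements with the core ACGTG (ABA-responsive elements, ABREs). In young seedlings exogenous ABA is known to slow growth and to recall seed-type gene expression.

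The 6 libraries held between 15573605 and 17538529 counts each. In them 1 count was worth 0.0498 to 0.0641 CPM, the level scale used throughout, in which counts are scaled to a common library size after TMM normalisation. The first principal component carried 83.6% of the variance and separated ABA from mock. Pairs of replicates had a chi-square of 4.08 to 20 per degree of freedom over genes, where counting error alone gives about 1. PIF3, a gene mutated in pifq, lay at 55.9 to 150 CPM over the dark wild-type libraries, at 1.67 to 3.1 CPM in dark pifq mock and at 16.6 to 24.6 CPM in dark pifq with ABA.

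Of the 20828 genes, 8385 (40.3%) were called, that is, had an adjusted p under 0.05 in the quasi-likelihood test of edgeR after Benjamini-Hochberg correction. They divided into 4744 higher with ABA (22.8%) and 3641 lower (17.5%). Among changes of at least 2-fold the balance was the other way, with 1144 higher (5.49%) and 1870 lower (8.98%). At 16-fold and more there were 180 higher (0.864%) and 283 lower (1.36%), and at 64-fold and more 62 higher and 97 lower. In 29.2% of the tested genes every ABA library lay above every mock library, and in 22.4% every ABA library lay below. The split of all calls depended on the scaling. Of all genes 38.3% were called by DESeq2, 38.1% with RLE size factors, 37.4% with library totals and 35.6% in a fit of the 6 libraries alone. The share of calls that were higher was 56.6% with TMM, 48% with RLE size factors, 46.4% in the fit of 6 libraries and 34.9% with library totals. The median log2 change over all tested genes moved with it, from 0.07 with TMM to -0.07 with library totals.

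The 10 genes with the highest change by the naming rule were ATPXG2, ATS1, CRB, CRU3, SESA2, SESA5, CBSX4, HAI3, GASA2 and GASA3. ATPXG2 and ATS1 encode oil-body peroxygenases (caleosins), CRB and CRU3 cruciferins and SESA2 and SESA5 albumins of the seed store, HAI3 a clade A PP2C, and GASA2 and GASA3 peptides of the gibberellin-regulated GASA family. ATPXG2 had 48.5, 29.8 and 19.5 CPM in the ABA libraries against 0.0498, 0.103 and 0 in mock. The 3 mock libraries held 3 counts of it in all, so the ratio of counts per TMM-scaled total was 637 with an exact 95% counting interval of 218 to 3093. By the same rule the 10 with the lowest change were AIR1, IRT1, CKX4, EXPA17, CYP82C4, AGP30, BGLU35, BGLU34, CYP710A4 and THAS1. AIR1, named for its induction by auxin in cultured roots, had 62.3, 62.6 and 59.1 CPM in mock, and 0, 0 and 0.128 CPM with ABA. These are 3527 counts against 2, a ratio of 1548 with an interval of 428 to 12787. Genes close to absent in a group were mostly those that fell. With at most 3 counts over 3 libraries of a group and a mean of at least 5 CPM in the other, 26 genes were off with ABA and 3 were on with ABA. Since whole seedlings were read, a fall through fewer cells of a type and one through less RNA per cell cannot be told apart, nor can the matching rises.

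**Figure D1:**
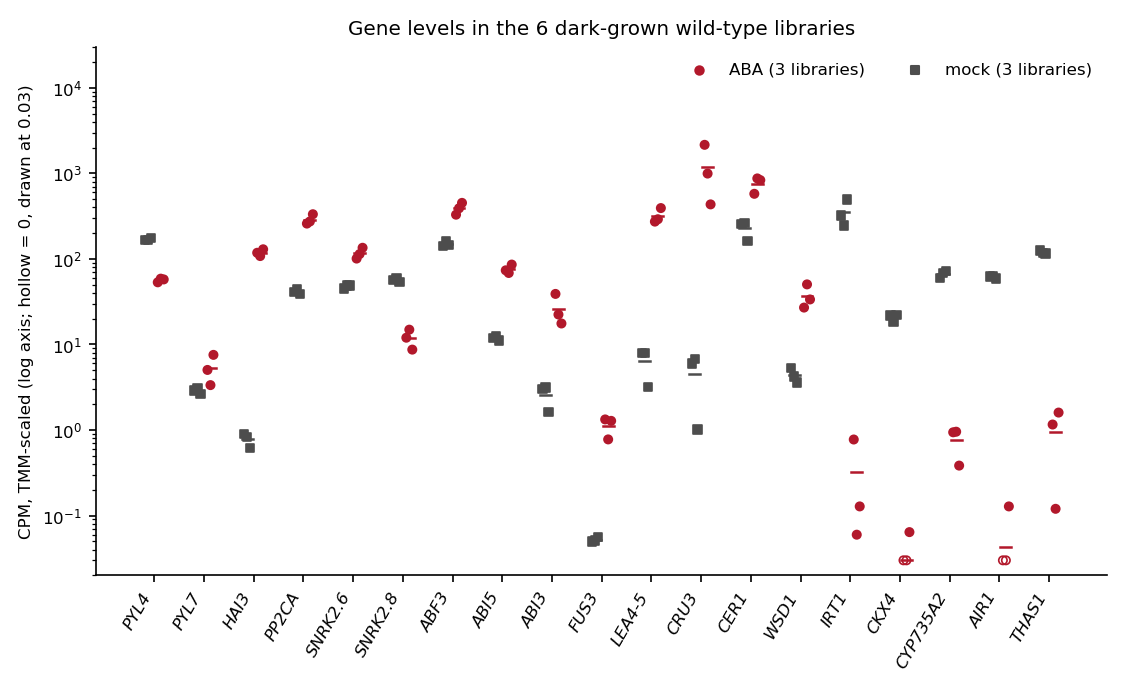
Levels of 19 named genes in each of the 6 dark wild-type libraries, as TMM-scaled CPM on a log axis, with ABA libraries as red circles, mock libraries as grey squares and group means as short lines. Hollow symbols are libraries with 0 counts, drawn at 0.03. In every gene shown the ABA and mock libraries do not overlap, which the naming rule required of the genes with the highest and lowest changes.

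Promoter windows are printed for 5 genes, because the strongly changed genes differed from the rest in what these windows hold. HAI3 and RAB18, a dehydrin, were picked after their values were seen, to show ABRE cores. ATS1, AIR1 and IRT1 came from the ranking at both ends. Each line is the 250 bases before the annotated transcript start, 5′ to 3′ on the gene's strand, from the RefSeq annotation of TAIR10.1. The windows are chr2:12608425-12608674 on the plus strand for HAI3, chr5:26519448-26519697 on the minus strand for RAB18, chr4:13475372-13475621 on the minus strand for ATS1, chr4:7438865-7439114 on the plus strand for AIR1 and chr4:10707094-10707343 on the plus strand for IRT1. Capitals mark ACGTG or its reverse complement CACGT (ABRE core) and CATGCA or its reverse complement TGCATG (RY element, bound by B3 factors such as ABI3 and FUS3).
HAI3: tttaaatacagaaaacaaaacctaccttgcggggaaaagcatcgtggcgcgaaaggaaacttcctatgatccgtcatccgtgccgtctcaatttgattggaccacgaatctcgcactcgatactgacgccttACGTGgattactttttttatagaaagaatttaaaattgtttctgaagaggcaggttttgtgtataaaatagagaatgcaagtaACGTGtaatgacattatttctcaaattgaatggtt
RAB18: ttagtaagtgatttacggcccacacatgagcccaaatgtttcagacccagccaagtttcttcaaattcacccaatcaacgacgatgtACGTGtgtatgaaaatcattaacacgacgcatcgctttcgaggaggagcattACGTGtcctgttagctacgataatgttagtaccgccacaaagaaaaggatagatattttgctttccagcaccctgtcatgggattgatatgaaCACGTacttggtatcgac
ATS1: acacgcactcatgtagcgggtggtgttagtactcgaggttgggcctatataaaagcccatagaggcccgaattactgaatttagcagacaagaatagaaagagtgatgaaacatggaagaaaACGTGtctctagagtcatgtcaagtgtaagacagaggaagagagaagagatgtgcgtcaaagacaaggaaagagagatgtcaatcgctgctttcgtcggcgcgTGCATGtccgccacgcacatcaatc
AIR1: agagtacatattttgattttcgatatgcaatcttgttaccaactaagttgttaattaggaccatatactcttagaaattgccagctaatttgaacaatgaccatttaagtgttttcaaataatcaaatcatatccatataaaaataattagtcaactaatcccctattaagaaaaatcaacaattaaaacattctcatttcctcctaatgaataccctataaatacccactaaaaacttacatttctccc
IRT1: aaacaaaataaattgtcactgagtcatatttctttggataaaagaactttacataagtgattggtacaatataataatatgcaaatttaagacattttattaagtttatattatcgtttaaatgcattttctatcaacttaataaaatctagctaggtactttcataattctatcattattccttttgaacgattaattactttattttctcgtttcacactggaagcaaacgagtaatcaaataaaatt
HAI3 has 2 ABRE cores in its window, RAB18 has 3, and ATS1 has 1 with 1 RY element. AIR1 and IRT1 hold none of the searched letters. Among the highest risers, ATPXG2 has 1 RY element and no ABRE core in its window, and CRB has neither.

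Over windows from 250 bases before to 50 bases after the start, searched on both strands, ACGTG occurred in 28.1% of the 20683 tested genes with a window. It occurred in 75% of the 180 genes that rose at least 16-fold, in 48.6% of those that rose at least 2-fold and in 25% of those not called. Among genes that fell, the share was 30.5% at 2-fold or more, 33.6% at 4-fold or more and 37.5% at 16-fold or more. At least 2 matches, counted over both strands, were present in 56.1% of the 16-fold risers and 12.2% of all. The G-box CACGTG contains ACGTG on both strands, so a single G-box can give 2 matches, which need not be separate sites. The G-box was found in 8.97% of all windows and 45% of the 16-fold risers. It was found in 5.78% of the genes that fell at least 2-fold. CATGCA was in 8.93% of all windows, 42.8% of the 16-fold risers and 19.8% of the 16-fold fallers. Median GC content was 32% over all windows, 35.8% in the 16-fold risers and 30% in the 16-fold fallers, and its part in these shares was not tested. A match is a string of letters, not a measured binding site.

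**Figure D2:**
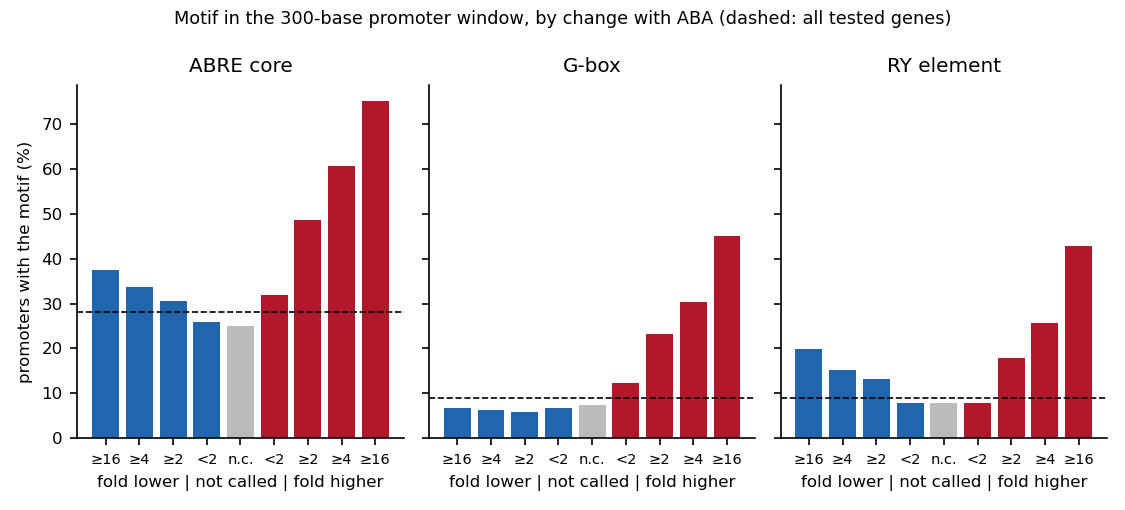
Share of promoter windows (percent, bars from 0) that hold the ABRE core ACGTG, the G-box CACGTG or the RY element CATGCA, by call and size of the change with ABA. Classes of at least 2-, 4- and 16-fold are nested, n.c. is not called, and the dashed line is the share over all tested genes. For ACGTG the bars climb from 25% in genes not called to 75% in genes that rose at least 16-fold. On the other side they reach 37.5% in genes that fell at least 16-fold.

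In the ABA signalling chain most tested receptors were lower and the phosphatases that they inhibit higher. Of 14 receptor genes 9 were tested, and 6 fell while 1 rose. PYL4 stood at 53.3, 58.8 and 57.6 CPM with ABA and at 166, 166 and 176 CPM in mock. All 3 ABA libraries were thus well below all mock libraries (log2 change -1.58 ± 0.17, SE, adjusted p = 2.36e-07). PYR1 (-0.85 ± 0.16), PYL5 (-1.04 ± 0.19), PYL1 (-0.61 ± 0.12) and PYL8 (-0.46 ± 0.10) also fell. PYL6 fell from a mean of 1.77 to 0.188 CPM. PYL7 rose by 0.88 ± 0.23, with 5.04, 3.35 and 7.56 CPM against 2.89, 3.08 and 2.63, but without ABA replicate 3 the call was lost (PYL7 log2 change 0.55, adjusted p = 0.0522). PYL2 (-0.93 ± 0.37, adjusted p = 0.0516) and PYL9 (-0.20 ± 0.14, adjusted p = 0.286) were not called. PYL2 was called with RLE size factors, library totals and DESeq2, and most clearly without ABA replicate 1 (-1.78, adjusted p = 0.00145), and PYL9 without ABA replicate 3 (-0.43, adjusted p = 0.018). PYL4 fell less in the dark wild type than in light (-3.14) or in pifq (-2.89), with interaction adjusted p of 0.000208 and 0.00137.

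All 9 clade A phosphatase genes rose by at least 2-fold, and all 9 remained called under every alternative run. HAI3 was at 118, 108 and 130 CPM with ABA and at 0.896, 0.822 and 0.616 CPM in mock. All 3 ABA libraries were close together and far above mock (log2 change 7.23 ± 0.24, adjusted p = 1.44e-14). AHG1 (5.39 ± 0.36), a phosphatase known for its role in seeds, and HAI2 (5.11 ± 0.26) followed, and HAB2 rose least (1.18 ± 0.11). PP2CA had 259, 274 and 333 CPM against 41.2, 44.6 and 38.6 (2.8 ± 0.16, adjusted p = 1.15e-11).

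Of the 10 SnRK2 kinase genes 3 rose and 1 fell, close to the 40.3% called over all genes. SNRK2.6 (OST1), the kinase of guard-cell ABA signalling, had 101, 114 and 135 CPM with ABA against 45, 48.8 and 48.8 in mock (1.3 ± 0.10, adjusted p = 2.63e-09). SNRK2.8 had 12, 14.9 and 8.71 CPM against 56.3, 59.2 and 53.9, and so was lower in every ABA library (-2.25 ± 0.17, adjusted p = 8.07e-10). SNRK2.1 (0.75 ± 0.08) and SNRK2.10 (0.64 ± 0.09), members of the subclass not activated by ABA, rose. SNRK2.2 (0.17 ± 0.14) and SNRK2.3 (0.22 ± 0.13), which act with SNRK2.6 as the main ABA-activated kinases, were not called. Nor were SNRK2.4 (0.18 ± 0.09), SNRK2.5 (-0.02 ± 0.25), SNRK2.7 (0.22 ± 0.34) and SNRK2.9 (0.67 ± 0.30). SNRK2.9 was called in the fit of the 6 libraries alone (0.61, adjusted p = 0.0211) and with the replicate block (0.63, adjusted p = 0.00238).

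In the list of ABF/ABI5 bZIP factors, which also holds the G-box factor GBF3, 6 of 8 tested genes rose and none fell. ABI5, the factor of post-germination arrest, stood at 73.6, 68.5 and 85.9 CPM against 12, 12.5 and 11.1 in mock (2.68 ± 0.37, adjusted p = 1.15e-05). ABF2 (1.89 ± 0.11), ABF3 (1.39 ± 0.14), ABF4 (1.39 ± 0.09) and GBF3 (1.63 ± 0.12) rose as well. AREB3 rose by 0.27 ± 0.07, a call lost with library totals. ABF1 (0.89 ± 0.41, adjusted p = 0.0912) and EEL (0.31 ± 0.38) were not called. For ABF1 the groups did not overlap, at 40.8, 39.1 and 38.1 CPM against 18.7, 18.2 and 26.9, which holds for 29.2% of all tested genes in this direction. ABF1 was called in the fit of the 6 libraries alone (adjusted p = 0.00228). Further downstream 15 of 20 stress transcription factors rose and none fell. HB-7 and HB-12, homeodomain factors that act in feedback on ABA signalling, rose by 2.89 ± 0.16 and 2.51 ± 0.20. NAC019 rose by 3.96 ± 0.24, MYB102 by 4.07 ± 0.39 and RD26 by 2.07 ± 0.28. WRKY18 (0.24 ± 0.24), WRKY40 (-1.03 ± 0.51) and WRKY60 (-0.28 ± 0.22), a trio known as regulators of ABA signalling, were not called. WRKY40 had 4.26, 3.59 and 5.51 CPM with ABA against 9.11, 9.96 and 8.17 in mock. In WRKY40 and WRKY60 every ABA library lay below every mock library, as in 22.4% of all tested genes.

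Seed-type expression was switched up across regulators, reserves and protective proteins. Of 9 seed maturation regulators 6 were tested, and ABI3, ABI4 and FUS3 rose. ABI3 had 39, 22.4 and 17.6 CPM with ABA against 3.04, 3.13 and 1.62 in mock (3.33 ± 0.45, adjusted p = 8.11e-06). FUS3 had 1.33, 0.777 and 1.28 CPM against 1 count in each mock library, a count ratio of 21.6 with an interval of 7.04 to 108. ABI4 rose by 3.68 ± 0.65. WRI1 (-0.06 ± 0.12), BZIP53 (0.01 ± 0.12) and DOG1 (0.54 ± 0.57) were not called. LEC1, LEC2 and L1L, the other known master regulators of embryo identity in the list, were under 0.14 CPM on average in both groups and were not tested.

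Of 15 genes for seed storage proteins and oil bodies 13 were tested and 12 rose, with a median log2 change of 6.71 against 0.07 over all genes. The 3 ABA libraries differed widely. CRU3 had 2156, 995 and 434 CPM with ABA and 5.98, 6.73 and 1.01 CPM in mock. ABA replicate 1 was about 5 times ABA replicate 3 in this gene, and mock replicate 3 was the lowest of its group (8.01 ± 1.34, adjusted p = 9.82e-05). ATS1 (39.8, 14.2 and 11.9 CPM with ABA) was also highest in ABA replicate 1. OLEO1, an oleosin of the oil-body surface, had 248, 144 and 114 CPM against 2.14, 1.64 and 0.896 (6.73 ± 0.68), with the same library on top. Summed over the list, the level was 6682, 3525 and 1955 CPM with ABA and 81.3, 78.1 and 34.3 CPM in mock. It made up 0.697%, 0.36% and 0.196% of all counts in the ABA libraries. OLEO3 was not called (1.08 ± 0.49, adjusted p = 0.0868). Albumin genes of the SESA group are close paralogues, and how their shared reads were counted is not given.

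The list of 21 LEA, dehydrin and cold-regulated genes rose nearly whole, with 20 called higher and a median of 4.56. With ABA the sum of this list did not share the lean of the storage genes, though members such as EM6 and ECP31 (24, 22.2 and 14.7 CPM) did. The summed level of the list was 7795, 9338 and 9963 CPM in the ABA libraries, lowest in ABA replicate 1, against 1369, 1262 and 1235 CPM in mock. LEA4-5 had 273, 291 and 393 CPM against 8.02, 7.96 and 3.19 (5.63 ± 0.37, adjusted p = 7.54e-10). The early-methionine gene EM6 stood at 97.3, 95.1 and 73.3 CPM against 1.94, 1.95 and 0.728 (5.82 ± 0.42). RAB18 rose from a mean of 38.1 to 1669 CPM and RD29B from 54.7 to 1931 CPM. Dehydrins already present in mock moved less, ERD14 by 0.36 ± 0.11 and COR47 by 0.86 ± 0.15. TIP3;1, the vacuolar aquaporin of seed protein bodies, had 315, 299 and 204 CPM against 8.71, 6.37 and 1.01 (5.65 ± 0.58).

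Over the 137 genes that rose at least 16-fold to a mean of 5 CPM or more, ABA replicate 1 was the highest ABA library for 88 (64.2%) and mock replicate 1 the highest mock library for 90 (65.7%). Without ABA replicate 1 the counts of calls were 12 storage and oil-body genes, 20 LEA genes and 3 seed regulators, as with all libraries.

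**Figure D3:**
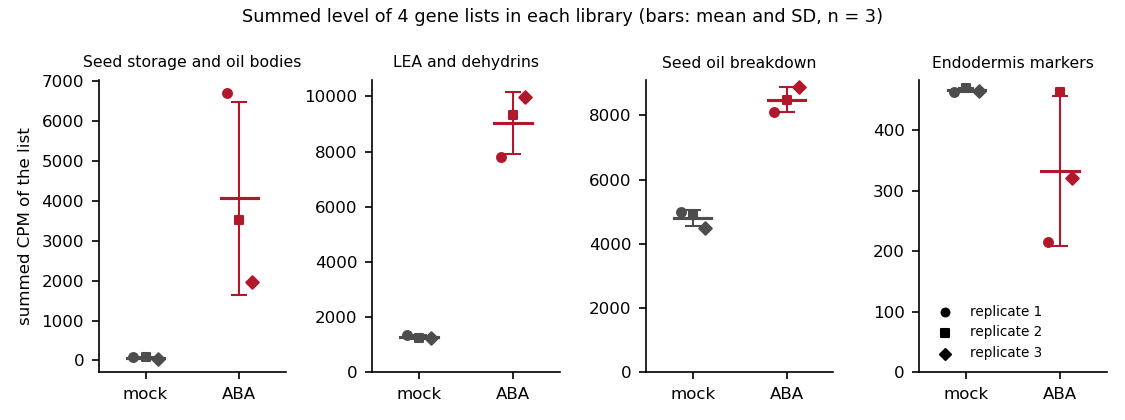
Summed CPM of 4 gene lists in each dark wild-type library, with mock in grey and ABA in red, symbols for replicates 1 to 3, and lines and bars for mean and SD (n = 3). The storage and oil-body sum is highest in ABA replicate 1 (6682 CPM), where the LEA sum (7795 CPM) and the endodermis marker sum (216 CPM) are the lowest of the ABA group.

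Genes that break down seed oil rose as well. Of 20 genes for fatty acid release, peroxisomal beta-oxidation, the glyoxylate cycle and gluconeogenesis, 15 rose and none fell, at a median of only 0.51. CSY3, peroxisomal citrate synthase, had 273, 286 and 277 CPM against 129, 135 and 130 (1.09 ± 0.12, adjusted p = 1.62e-07). Beta-oxidation genes were in the same range, with AIM1 at 0.79 ± 0.09, MFP2 at 0.81 ± 0.11 and the fatty acid importer PXA1 at 0.53 ± 0.07. Malate synthase MLS rose most (2.4 ± 0.45). Isocitrate lyase ICL had 2659, 2732 and 3205 CPM against 1450, 1410 and 943, but was not called (1.18 ± 0.54, adjusted p = 0.0918). Its groups did not overlap, as in 29.2% of all tested genes in this direction. It was called in the fit of the 6 libraries alone (adjusted p = 0.00137). The lipase gene SDP1, which starts oil breakdown, was not called (0.04 ± 0.11).

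In proline and soluble sugar metabolism 10 of 19 genes rose and 3 fell. P5CS1, the rate-limiting enzyme of proline synthesis, had 532, 547 and 591 CPM against 100, 97.9 and 89.9 (2.54 ± 0.19, adjusted p = 6.45e-10). The proline dehydrogenase gene ERD5 fell by 0.80 on the log2 scale, from 384 to 220 CPM. P5CDH, also a gene of proline breakdown, rose by 0.90 ± 0.09 (adjusted p = 2.65e-08). GOLS2, galactinol synthase, rose by 4.88 ± 0.31 and STS, annotated as stachyose synthase, by 4.28 ± 0.33. GOLS1 was not called (0.69 ± 0.27, adjusted p = 0.0516). Sucrose synthase SUS3, known from maturing seeds, rose by 2.82 ± 0.17, whereas SUS4 fell by 1.02 on the log2 scale.

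Cuticular wax genes rose, and most responded more in the dark wild type than in the other settings. Of 14 cuticular wax genes 12 rose and none fell. CER1, which is needed to make wax alkanes, had 577, 873 and 834 CPM with ABA and 256, 265 and 162 CPM in mock (1.74 ± 0.18, adjusted p = 1.73e-07). CER6, the elongase of very long chain fatty acids, had 977, 1252 and 1124 CPM against 494, 504 and 476 (1.19 ± 0.14). The exporter ABCG11 had 225, 272 and 269 CPM against 131, 131 and 121 (1.00 ± 0.12). In each of the 3 genes ABA replicate 1 was the lowest ABA library but lay above every mock library. MYB94 and MYB96, factors that activate wax genes, rose by 1.73 ± 0.15 and 1.79 ± 0.21. WSD1, the wax ester synthase, rose by 3.07 ± 0.34.

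The difference in the response itself was tested as an interaction. Over all genes 2480 (11.9%) differed between dark and light wild type, 1254 (6.02%) with a higher log2 change in the dark and 1226 (5.89%) with a lower one. Between dark wild type and dark pifq 2376 (11.4%) differed, 1185 (5.69%) higher in the wild type and 1191 (5.72%) lower. Of the 14 wax genes, 10 had a higher change in the dark wild type than in light and 9 a higher change than in pifq. The 10 include CER4, which was not called in dark wild type (-0.83, adjusted p = 0.0598) and fell in light (-3.22). The 9 include MAH1, also not called in dark wild type, with only 0, 4 and 2 counts in its ABA libraries. The median change of the list was 0.87 in dark wild type, 0.11 in light and 0.05 in pifq. CER6 rose from 491 to 1118 CPM in dark wild type and only from 530 to 733 CPM in pifq (interaction 0.72 ± 0.20, adjusted p = 0.0219). CER1 was the exception in both tests, since it rose more in light (2.72) and in pifq (3.91). Both tests share the dark wild-type libraries. Of 8 epidermis and guard cell markers 3 rose, ATML1 (0.40 ± 0.13), PDF2 (0.52 ± 0.12) and FDH (0.53 ± 0.13), where 22.8% of all genes rose. The stomatal lineage factor SPCH fell by 0.91 on the log2 scale. The ATML1 call was lost with library totals (0.26, adjusted p = 0.111), without ABA replicate 2 and without mock replicate 3. The summed epidermis and guard cell markers were 1019, 1228 and 1320 CPM with ABA against 929, 905 and 839 CPM in mock. The part of epidermal cell number in the wax values was not tested.

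Of 22 suberin and cutin genes 21 were tested, 6 rose and 3 fell, near the shares over all genes (22.8% and 17.5%). Those that rose included the cutin genes GPAT4 (0.88 ± 0.11) and CYP86A2 (0.88 ± 0.18) and the elongase KCS2 (2.53 ± 0.20). CYP86A1, the fatty acid hydroxylase of root suberin, fell from 16.8, 15.5 and 16.3 CPM to 2.88, 1.97 and 0.961 CPM (-3.04 ± 0.46, adjusted p = 2.79e-05). GPAT6, known from flower cutin, fell by 2.43 on the log2 scale.

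**Figure D4:**
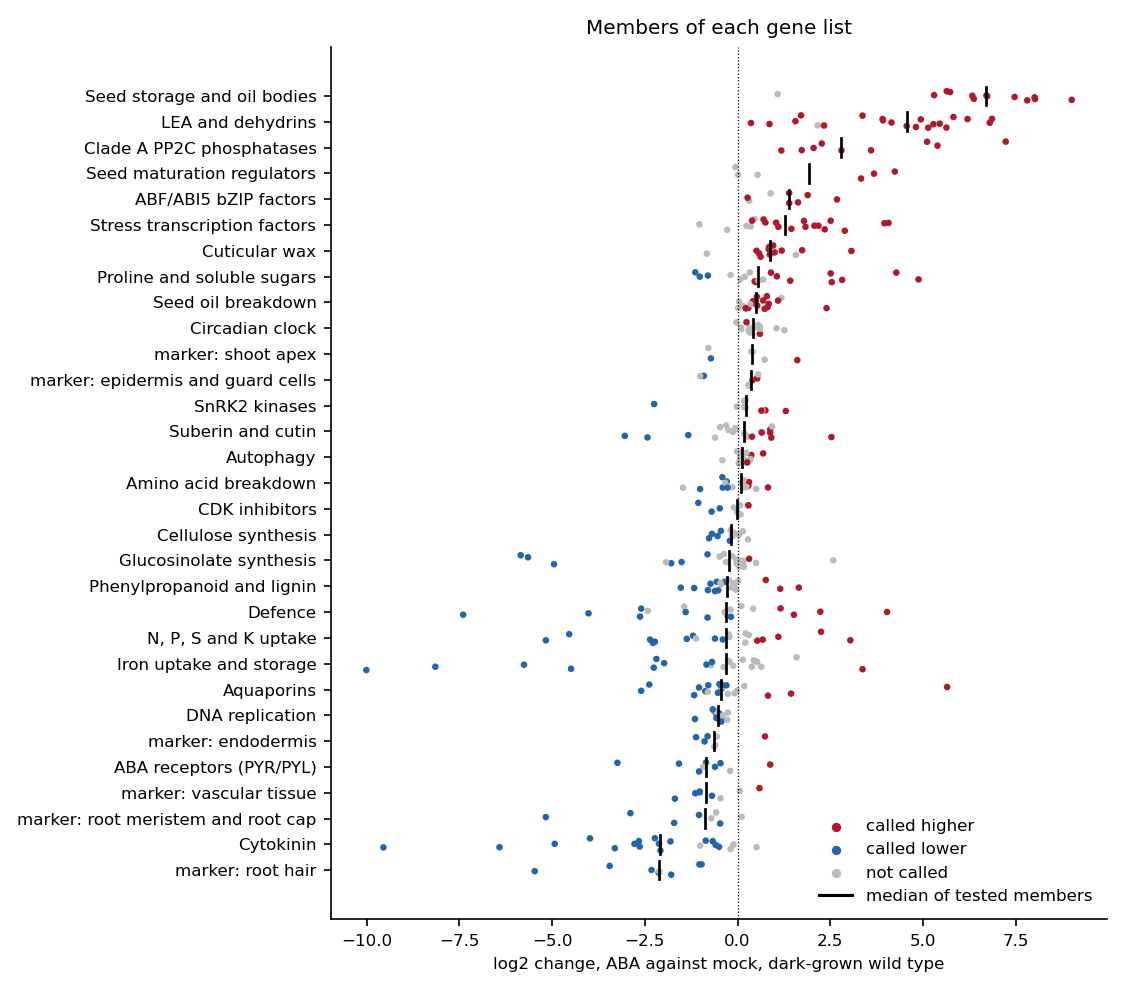
Log2 change with ABA of every tested member of 31 gene lists in dark-grown wild type, with 1 point per gene (red called higher, blue called lower, grey not called) and a black line at the list's median. Lists are ordered by median, from seed storage and oil bodies at 6.71 down to the root hair markers at -2.12.

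Nutrient uptake genes of the root were among those that fell furthest. Of 22 tested genes for iron uptake and storage 9 fell and 1 rose, where 40.3% of all genes were called and 17.5% fell. IRT1, the main iron importer of the root epidermis, had 323, 245 and 497 CPM in mock and 0.775, 0.0598 and 0.128 CPM with ABA (-10.01 ± 0.59, adjusted p = 1.97e-10). Of the 17 counts left with ABA 14 came from ABA replicate 1. FRO2, the ferric reductase that works beside it, fell from 144, 99 and 223 CPM to 3.32, 2.27 and 2.95 CPM (-5.76 ± 0.36). FIT, the factor that activates both, fell from 37.8, 34.9 and 66 CPM to 0.941, 2.03 and 3.27 CPM (-4.49 ± 0.40). In all 3 genes mock replicate 3 was the highest library. IRT2 had 447 counts in mock and 1 with ABA, and CYP82C4, which modifies iron-mobilising coumarins, had 1082 and 2. In contrast, the FIT partners BHLH38 (0.53 ± 0.46), BHLH39 (-0.72 ± 0.32), BHLH100 (-0.26 ± 0.58) and BHLH101 (-0.22 ± 0.68) were not called. FER2, a ferritin known from seeds, rose by 3.37 ± 0.46.

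Of 26 genes for uptake of nitrate, ammonium, phosphate, sulfate and potassium 20 were tested, 9 fell and 5 rose. Over all genes 17.5% fell and 22.8% rose. SKOR, the channel that loads potassium into the xylem, had 0.831, 0.956 and 1.09 CPM with ABA against 21.7, 23.4 and 22 (-4.54 ± 0.24, adjusted p = 4.28e-12). AMT1;3, a root ammonium transporter, fell by 2.28 on the log2 scale, PHT1;1 for phosphate by 2.23 and the sulfate transporter SULTR1;1 by 5.17. NRT2.7, the nitrate transporter of seed vacuoles, rose to 83.2, 77.4 and 77.9 CPM from 36.8, 37.2 and 37.3 (1.1 ± 0.09). Of 21 tested aquaporins 12 fell and 3 rose. TIP4;1 (-2.60 ± 0.34) and PIP2;3 (-2.38 ± 0.34) fell most, and PIP1;4 (0.82 ± 0.13) rose beside the seed form TIP3;1. PIP2;2 and PIP2;3 are near-identical copies, so the split of reads between them is uncertain. Without ABA replicate 1 the aquaporin calls dropped from 15 to 8.

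Cytokinin genes fell as a block. Cytokinins are made by IPT enzymes, converted to the trans-zeatin form by CYP735A, removed by CKX oxidases and read out by type-A response regulators (ARR). Of 20 tested genes 16 fell and none rose, at a median of -2.10. The hydroxylase gene CYP735A2 had 0.941, 0.956 and 0.384 CPM with ABA and 59.8, 68 and 72.8 CPM in mock, with no overlap (-6.42 ± 0.26, adjusted p = 1.22e-13). CKX4 had 1 count in the 3 ABA libraries and 1195 in mock. Among the response regulators, ARR5 went from 52.1, 48.7 and 42.4 CPM to 7.14, 6.69 and 8.91 CPM (-2.66 ± 0.15) and ARR6 from 28.9, 30.3 and 29.3 CPM to 4.43, 4.12 and 4.36 CPM (-2.78 ± 0.19). All 8 tested type-A regulators fell, as did IPT3, IPT5 and IPT7, while IPT1, CKX1, CKX2 and CKX7 were not called. The list's median was -0.82 in light and -1.15 in pifq. For 7 members the change was lower in dark wild type than in light, and for 5 lower than in pifq.

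Markers of root tissues were lower too, where 17.5% of all genes fell and 22.8% rose. Root hair markers fell in 7 of 8 genes, root meristem and cap markers in 5 of 8, and endodermis markers in 3 of 7 tested with 1 rise. Their summed levels with ABA were 17.2, 16.3 and 16.5 CPM for root hair against 52.9, 45.9 and 75.5 CPM in mock. For endodermis they were 216, 463 and 321 against 464, 470 and 465 CPM, with 1 ABA library close to the mock level. For root meristem and cap they were 121, 123 and 112 against 131, 130 and 135 CPM. EXPA18, an expansin of root hairs, fell from 3.69, 2.82 and 5.09 CPM to 0.0554, 0 and 0.192 CPM (-5.47 ± 0.79). BRN1, a factor of the root cap, had 57 counts in mock and 1 with ABA. SCR, which specifies the endodermis, was not called (0.11 ± 0.08). These markers moved in the same direction as the uptake and cytokinin genes, and their part in those falls was not tested.

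All 8 root hair markers had a lower change in dark wild type than in pifq, where 5 rose and the median was 1.65, and 5 had a lower change than in light, where the median was -0.25. PRP3, a cell wall protein of root hairs, fell from 18.1 to 1.64 CPM in dark wild type but was 34.3 CPM with ABA against 10.2 CPM in pifq mock (interaction -5.22 ± 0.71, adjusted p = 0.00016). The endodermis went the other way. Its median change was -0.63 in dark wild type, -2.43 in light and -1.83 in pifq. CASP5, a protein of the Casparian strip, rose to 73.1, 146 and 108 CPM from 66, 60.4 and 70.3 CPM (0.74 ± 0.26, adjusted p = 0.0296). Every single-library omission except that of ABA replicate 1 ended this call, with the weakest value without ABA replicate 2 (0.47, adjusted p = 0.186). In light the same gene changed by -1.35 (interaction adjusted p = 0.00413).

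**Figure D5:**
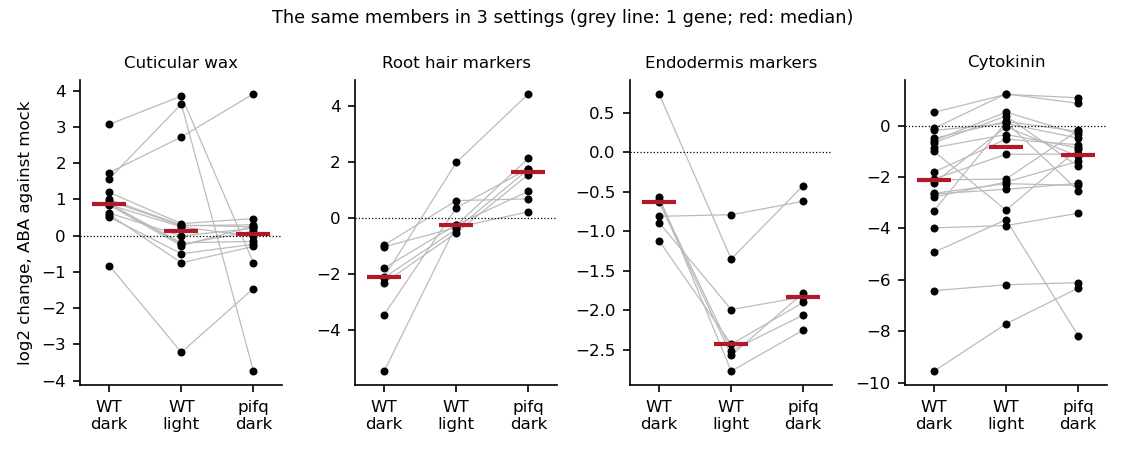
Log2 change of ABA against mock for the same members of 4 lists in dark wild type, light wild type and dark pifq, with a grey line per gene and a red mark at the median. Wax genes lie higher in dark wild type (median 0.87, against 0.11 and 0.05), and root hair markers lie lower (-2.12, against -0.25 and 1.65).

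Class III peroxidases, secreted enzymes of the cell wall, fell in 32 of 64 tested genes and rose in 8. For 25 the change was lower than in pifq and for 17 lower than in light. AT3G21770 had 49.6, 62.6 and 55.1 CPM with ABA and 221, 215 and 254 CPM in mock (-2.04 ± 0.20), while its log2 change in light was 0.16. PRX52 was among the few that rose, at 44.4, 28.3 and 36.6 CPM against 6.62, 5.49 and 3.3 (2.82 ± 0.30).

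Several vascular and wall genes fell, where 17.5% of all genes fell and 22.8% rose. Of 8 vascular markers 5 fell and 1 rose. XCP1, a xylem peptidase, had 39.9, 52.6 and 40.4 CPM against 108, 91.1 and 93.6 (-1.14 ± 0.24), and VND6, a switch factor of xylem vessels, fell by 1.69 on the log2 scale. The phloem sucrose transporter SUC2 rose by 0.59 ± 0.13. In phenylpropanoid and lignin synthesis 8 of 20 fell and 3 rose. CCoAOMT1, a lignin methyltransferase, fell from 421, 410 and 445 CPM to 240, 273 and 257 CPM (-0.73 ± 0.11), while CAD5 (0.76 ± 0.10) and FAH1 (1.65 ± 0.31) rose. Of 12 cellulose genes 5 fell and none rose, close to the 40.3% called over all genes. Those included CESA4, CESA7 and CESA8 of the secondary wall at -0.77 ± 0.22, -0.69 ± 0.25 and -0.54 ± 0.21, and COB at -0.45 ± 0.08. CESA1 (0.14 ± 0.08), CESA3 (-0.16 ± 0.09) and CESA6 (0.03 ± 0.08) of the primary wall were not called. Single-library omissions gave 2 to 4 cellulose calls in place of 5, the fewest without ABA replicate 1.

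THAS1, thalianol synthase, was among the 10 largest falls by the naming rule, at 1.16, 0.12 and 1.6 CPM with ABA against 125, 118 and 116 in mock (-6.96 ± 0.28, adjusted p = 2.33e-13). It makes a root triterpene from a cluster of neighbouring genes, and the members of this and related clusters were looked up after that value was seen. On chromosome 5 (TAIR10.1) THAS1 spans 19456837 to 19461706 on the plus strand, with CYP708A2, CYP705A5 and the acyltransferase gene AT5G47980 at lower coordinates, down to 19428888. All fell: CYP708A2 by 5.21 ± 0.32, CYP705A5 by 3.44 ± 0.36 and AT5G47980 by 5.82 ± 0.48 on the log2 scale. AT5G47980 had 13.9, 9.71 and 11.4 CPM in mock and 0.221, 0 and 0.384 CPM with ABA. The marneral cluster on the same chromosome (MRN1 -2.61 ± 0.42, CYP71A16 -3.96 ± 0.33, CYP705A12 -1.93 ± 0.34) and the arabidiol pair on chromosome 4 (PEN1 -2.74 ± 0.16, CYP705A1 -2.02 ± 0.23) fell as well. MRN1 rose by 3.86 in light (interaction adjusted p = 5.08e-05), so that cluster's synthase moved in opposite directions in darkness and in light. Its light values were low, with means of 0.133 CPM in mock and 2.05 CPM with ABA. In light CYP71A16 fell by 1.91 and CYP705A12 was not called (-0.81, adjusted p = 0.206). THAS1 fell less in light, by 2.51 (interaction adjusted p = 9.64e-06), as did CYP708A2, by 2.00 (interaction adjusted p = 0.0016). Their light mock means were low, at 6.35 CPM for THAS1 and 3.59 CPM for CYP708A2, against 119.6 and 83.8 CPM in dark mock. With ABA THAS1 averaged 1.11 CPM in light and 0.961 CPM in darkness, so it differed in its mock level and hardly in its level with ABA. The rest of the thalianol cluster did not fall less in light. AT5G47980 fell there by 5.82, as in darkness, and CYP705A5 by 6.96 (interaction adjusted p = 0.132). The light levels of these genes were low as well. AT5G47980 averaged 1.8 CPM in light mock and 0.0229 CPM with ABA, and CYP705A5 averaged 6.98 and 0.0472 CPM.

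Chemical defence showed rises and falls, where 22.8% of all genes rose and 17.5% fell. Of 18 tested defence genes 7 fell and 4 rose. ALD1, which makes the pipecolic acid precursor of systemic resistance, had 268 counts in mock and 1 with ABA, a ratio of 235 with an interval of 41.9 to 9326. FMO1, which acts on that product, fell from 9.01, 4.47 and 4.2 CPM to 0.166, 0.837 and 0.0641 CPM (-4.02 ± 0.55), and PAD4 fell by 1.40 ± 0.16. PR4, a chitin-binding protein, rose by 1.52 ± 0.21 and the receptor kinase FRK1 by 2.23 ± 0.32. PR1, PR2 and PR5 averaged 0.12 CPM or less in both groups and were not called. In glucosinolate synthesis 6 of 20 fell and 1 rose, a share of calls under the 40.3% of all genes. The falls lay among genes of the aliphatic branch such as MAM3, at 0.443, 0.239 and 0.0641 CPM against 13.1, 14.7 and 12 (-5.65 ± 0.38), and MYB28 (-1.51 ± 0.27), and also included MYB122 (-0.81 ± 0.31) of the indolic branch. CYP79B2 (0.04 ± 0.26) and CYP79B3 (0.50 ± 0.23) of the indolic branch were not called. CYP83A1 had 0 counts with ABA and 26 in mock, at least 7.61-fold lower with the floor set at 3 counts over the group. The root myrosinases BGLU34 and BGLU35 fell from 47.4, 28.7 and 35.5 CPM to 0.388, 0.0598 and 0.128 CPM and from 41.4, 29.6 and 31.5 CPM to 0.221, 0 and 0.32 CPM. They are close copies, and reads of one may have been counted for the other.

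Cell cycle genes showed small falls, where 17.5% of all genes fell and 22.8% rose. Of 12 DNA replication genes 8 fell and none rose, at a median of -0.53. PCNA1, the sliding clamp of the replication fork, had 3.6, 3.76 and 4.04 CPM against 8.37, 8.37 and 8.62 (-1.15 ± 0.21, adjusted p = 0.000126). CDT1A (-0.67 ± 0.13), PRL (-0.57 ± 0.13) and MCM4 (-0.58 ± 0.14), which license replication origins, fell too. Of 9 CDK inhibitors KRP7 (-1.06 ± 0.23), KRP3 (-0.70 ± 0.27) and SIM (-0.48 ± 0.16) fell and KRP4 rose (0.29 ± 0.11). Any single omission gave 1 or 2 calls in place of these 4, the fewest without mock replicate 3. The KRP4 call was lost in every omission. It was also lost with RLE size factors (adjusted p = 0.0925), library totals (adjusted p = 0.306), DESeq2 (adjusted p = 0.0978) and the replicate block (adjusted p = 0.0519). In amino acid breakdown, where 40.3% of all genes were called, 3 of 17 rose, led by the lysine-degrading LKR (0.82 ± 0.10), and 5 fell, led by BCE2 (-1.01 ± 0.10). Without mock replicate 1, and also without mock replicate 2, those 8 calls became 5.

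In the main fit some groups had a share of calls well under the 40.3% of all genes. Among 298 tested genes annotated as ribosomal proteins 15 rose and 24 fell, and the median was -0.04. With library totals 9 rose and 84 fell, so the count and its balance depended on the scaling. Of 18 autophagy genes 3 rose (ATG8B, ATG8C and ATG18A, by 0.26 to 0.69), and none fell. The ATG18A call was lost with RLE size factors, library totals (adjusted p = 0.303), the 6 libraries alone, the replicate block and without mock replicate 2. In 8 of the 18 every ABA library lay above every mock library, against 29.2% of all genes. Of 14 clock genes PRR7 (0.60 ± 0.21) and ZTL (0.24 ± 0.09) rose, and in 8 every ABA library lay above every mock library. The clock calls ranged from 0 with library totals to 5 with the replicate block, and were 0 without ABA replicate 1, mock replicate 1 or mock replicate 3.

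Transcription factor families, taken from the annotated product names, moved both ways, where 22.8% of all genes rose and 17.5% fell. WRKY genes fell in 23 and rose in 13 of 59 tested, with WRKY47 (-1.51 ± 0.13) and WRKY72 (-1.91 ± 0.19) lower. NAC genes fell in 24 and rose in 17 of 80. NAC089, a membrane-bound member, had 73.8, 78.2 and 88 CPM against 23, 25.5 and 21.2 (1.78 ± 0.11). MYB genes rose in 27 and fell in 29 of 93, with MYB112 up by 4.15 ± 0.22 and MYB86 down by 2.81 on the log2 scale. HD-Zip and homeobox genes rose in 16 and fell in 11 of 55. AP2/ERF genes rose in 30 and fell in 20 of 93. The largest named AP2/ERF change was that of AT5G18450, with 5.7, 5.14 and 3.65 CPM against 0, 0.154 and 0. These are 246 counts with ABA and 3 in mock, a ratio of 93.4 with an interval of 31.6 to 456. bHLH genes fell in 30 and rose in 14 of 96, and FBH3 rose by 2.83 ± 0.12. bZIP genes rose in 12 and fell in 15 of 53, and C2H2 zinc finger genes rose in 6 and fell in 8 of 56. These splits depended on the scaling. With library totals 19 AP2/ERF genes rose and 21 fell, 13 HD-Zip and homeobox genes rose and 14 fell, and 7 bHLH genes rose and 36 fell.

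The wall genes ATPMEPCRD, EXPA8 and PME61, taken from the interaction ranking, were among the largest differences from pifq, and ATPMEPCRD also from light. Wall genes as a class were not tested, and of 12 cellulose genes 1 differed from light and 2 from pifq. ATPMEPCRD, annotated as a pectin methylesterase inhibitor family member, had 228, 481 and 408 CPM with ABA and 443, 402 and 528 CPM in mock, groups that overlapped (-0.30 ± 0.24, adjusted p = 0.344). In pifq it went from 181 to 7.65 CPM and in light from 17.5 to 0.86 CPM. The cell wall expansin EXPA8 had 115, 195 and 183 CPM against 143, 151 and 129 (0.22 ± 0.19) and fell in pifq from 152 to 15.3 CPM. The pectin methylesterase PME61 rose from 8.42, 7.5 and 9.52 CPM to 22.4, 57.1 and 61.8 CPM (2.47 ± 0.30, adjusted p = 1.26e-06), while in pifq it went from 12.4 to 2.26 CPM. In all 3 genes ABA replicate 1 was the lowest of the ABA libraries.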

How the data were processed

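Polyadenylated RNA of whole seedlings was read as stranded paired ends of 100 bases, per the labels' protocols. The authors deposited raw read counts per gene for 24 libraries. FastQC, STAR, SAMtools and DESeq2 are named in the submitters' processing notes, with the build TAIR10. The sources used here do not say which program counted reads, with what strand setting or on which annotation. Counts were fitted in R 4.3.3 with edgeR 4.0.16: filterByExpr by group, TMM scaling, and the robust quasi-likelihood fit over all 24 libraries with each group as its own coefficient, so that all 8 groups share the spread (16 residual degrees of freedom). Benjamini-Hochberg adjustment was made per contrast, and genes with adjusted p under 0.05 were called. The steps were tested on simulated data. Alternatives were RLE size factors, library totals, no filter, DESeq2 1.42.0, the 6 libraries alone, a replicate block and each library left out.

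Gene names, starts and promoter windows came from the RefSeq annotation of TAIR10.1, in which 32548 of 32833 genes were found. The windows are of TAIR10.1 only, since the deposited table holds no coordinates. Of 475 written list members 468 had a name there and are reported. Named genes were first the 10 highest and 10 lowest changes. These were taken among called genes with a symbol, groups that did not overlap and a mean of at least 5 CPM over the 6 libraries. The others were the 4 called members of lowest p in each list, the signalling lists, and the 5 highest and 5 lowest of each interaction. Other list members named show the range of their list and were chosen after their values were seen. The members and lists were chosen with earlier results of these data known. Replicates are biological per the series' design text, and intervals on counts cover counting error only.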

Additional observations from a re-analysis of the deposited data

Results flagged for a closer look

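Each gene here has a response to ABA in dark wild type that differs from that in another setting by the interaction test of the same edgeR fit, given as the log2 change in dark wild type minus the log2 change in the other. Against the wild type in light, the response was higher for ST4C, a sulfotransferase, by 4.65, since ST4C fell in light from 3.41 to 0.167 CPM. It was higher for MSRB7, a methionine sulfoxide reductase, by 4.35, for ATPMEPCRD by 4.06, for the aldolase FBA5 by 3.76 and for the germin GER3 by 3.66. FBA5 was called as higher in dark wild type (adjusted p = 0.0463), but 8 alternatives ended that call, and without ABA replicate 3 it had an adjusted p of 0.303. The response in dark wild type was lower for AGP30, an arabinogalactan protein of roots, at -5.53, for BGLU35 at -5.15, for BGLU34 at -5.04, for IRT1 at -5.00 and for PYD4, of pyrimidine breakdown, at -4.93. PYD4 rose in light from 1.25 to 24.7 CPM and was not called in dark wild type, except as lower with the replicate block (-0.68, adjusted p = 0.00203). For IRT1 the interaction with light was not called without light ABA replicate 2 (-4.37, adjusted p = 0.137).

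Against pifq in darkness, the response was higher for PME61 by 4.92, for UMAMIT17, an amino acid transporter family member, by 4.48, for ATPMEPCRD by 4.26, for WSD1 by 3.83 and for EXPA8 by 3.54. It was lower for AGP30 at -6.21, for BGLU35 at -6.03, for BGLU34 at -5.86, for IRT1 at -5.50 and for PRP3 at -5.22. AGP30, BGLU34, BGLU35 and IRT1 thus differed in both tests, which share the dark wild-type libraries, and all 4 also fell in light and in pifq. Of the 30 AGP30 counts left in the dark ABA libraries 28 were in replicate 1.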

How the results depend on the processing

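The 8385 calls became 6909 to 7782 when a library was left out and 7409 to 7979 under RLE, library totals, DESeq2 and the 6 libraries alone, and 8379 without a filter. ABA by light gave 1857 to 2503 calls with a library left out. ABA by genotype gave 1530 (without pifq dark mock replicate 2) to 2729. With a library left out, cellulose calls were 2 to 4 of 5, aquaporins 8 to 15 of 15, CDK inhibitors 1 to 2 of 4, clock 0 to 2 of 2, amino acid breakdown 5 to 7 of 8 and endodermis markers 2 to 5 of 4. Library totals gave 8 cellulose, 0 clock and 93 ribosomal calls; no filter gave 2 cellulose calls; RLE and DESeq2 gave 1 clock call each; and the 6 libraries alone gave 4 clock and 2 endodermis calls. The causes were not tested.

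The deviations of same-numbered libraries had r of 0.086, 0.015 and 0.242, the last being the highest of any ABA and mock pair. Whether the numbers mark pairs was not tested. The replicate block gave 7498 calls, 5 of them clock genes.

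Some genes that were not called changed sign in other runs, and none was called with the changed sign. BZIP53 was -0.04 with RLE and DESeq2, -0.13 with library totals, -0.05 in the 6 libraries alone and with the replicate block, and -0.02 to 0.05 with a library left out. CAB1 was 0.01 without a filter, SNRK2.5 was 0.00 without a filter and HSC70-1 was -0.01 with library totals. With a library left out, CAB1 ranged from -0.21 to 0.33, SNRK2.5 from -0.25 to 0.24, SNRK2.7 from -0.15 to 0.50, GER3 from -0.53 to 0.12, WRI1 from -0.17 to 0.01 and ST4C from -0.01 to 0.80. The value of 0.80 for ST4C, without ABA replicate 1, was called (adjusted p = 0.0194).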
